A study of Mus musculus with 12 samples.

Results

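The comparison is of whole mouse kidneys labelled as Myc overexpression (Myc, n = 3 libraries) with kidneys labelled wildtype (n = 5), which make up 8 of the 12 libraries of a study on Grhl2 and the growth of renal cysts. The libraries were chosen by their genotype label alone. Wildtype mice carried the alleles R26StopFLMYC, a MYC transgene at Rosa26 behind a stop cassette, and Grhl2 flox/flox, and no Cre is named for them. The Myc group is labelled only by its genotype, and no source used here gives its cross, the Cre that frees the transgene or its Grhl2 alleles; its column names hold the letters HET. The remaining 4 libraries, Grhl2KO_Myc, came from mice with Grhl2 knockout and Myc overexpression, bred by crossing HoxB7-Cre; Grhl2flox/+ animals with R26StopFLMYC; Grhl2flox/flox animals. The HoxB7 promoter drives Cre in the ureteric bud and in collecting duct cells, which make up a minor part of the kidney. No treatment and no age is named for any group. The labels do not state that each library came from its own mouse, so every p-value measures only the spread between these libraries, which may be technical.

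MYC is a transcription factor that binds DNA as a pair with MAX, most tightly at the E-box CACGTG, and it is known for raising genes of ribosome production, nucleotide synthesis and cell growth by modest amounts each. Grhl2 is a transcription factor of epithelial cells that keeps up junction and barrier genes such as Cdh1, Cldn4 and Rab25. The collecting duct holds principal cells, which take up water and sodium, and intercalated cells, which secrete acid (type A) or bicarbonate (type B) and depend on the transcription factor Foxi1.

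The 8 libraries held between 52973520 and 101043826 counts. All 30 proximal tubule markers, all 20 podocyte markers and all 20 principal cell markers passed the filter on low counts. Levels are given in CPM, the count of a gene relative to the library total, scaled between libraries by the trimmed mean method (TMM). The rows that collect ribosomal RNA reads (Yam1, Rn18s-rs5 and Lars2) held 5.55% of the counts of Myc 1 (95% Wilson interval 5.545% to 5.554%, counting error only). In the other 11 libraries these rows held 0.16% to 0.581%. Wildtype 4 stood apart in another way, with a proximal tubule score of -1.45 on the log2 scale while the rest of the wildtype group had -0.25 to 0.61 and Myc -0.08 to 0.34. Wildtype 5 and Myc 3 had Ddx3y, a Y-linked gene, at 81.2 and 78.5 CPM, and no other library of the compared groups exceeded 0.245 CPM. Where a list median moved by over 1.5 times without 1 library, the farthest such values stand beside it.

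Neither targeted gene separated the groups. Grhl2 measured 29.2, 24.9, 25.6, 23.9 and 25.2 CPM in the 5 wildtype libraries and 28.5, 33.0 and 28.2 CPM in Myc 1 to 3. Myc 2 was above all wildtype libraries and the other Myc values lay within their range, and the log2 fold change was 0.22 (SE 0.0995, adjusted p = 0.999 in edgeR). Counts at the mouse Myc gene were 29.3, 21.3, 19.8, 34.4 and 28.7 CPM in wildtype and 24, 19.1 and 27.6 CPM in Myc. These ranges overlapped as well (log2 fold change -0.18, SE 0.17), and no source used here states whether reads of the transgene are counted at this gene. The related Grhl1 had 6.3 ± 0.839 CPM in wildtype and 6.77 ± 0.297 CPM in Myc, and Grhl3 had 3.06 ± 0.69 and 3.52 ± 0.625 CPM (mean ± SD).

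Krt4 was the gene that rose in Myc kidneys. It encodes a type II keratin of stratified lining epithelia and lies on chromosome 15, from 101918535 to 101924735 on the minus strand of mm10. Krt4 measured 0.198, 0.358, 0.433, 0.278 and 0.53 CPM in wildtype, which stands for 11 to 35 counts a library. It measured 1.97, 2.58 and 2.21 CPM in Myc, or 166, 180 and 222 counts, so the lowest Myc library was far above the highest wildtype library. The mean went from 0.359 ± 0.13 to 2.25 ± 0.309 CPM, a 6.26-fold rise (log2 fold change 2.65, SE 0.30, edgeR quasi-likelihood adjusted p = 0.0296). Krt4 was the 1 gene called at an adjusted p under 0.05 among 23742 tested, which is 0.00421%. Its log2 fold change stayed between 2.51 and 2.82 in each alternative run, but the call did not hold throughout: the edgeR adjusted p was 0.0907, 0.178, 0.114 and 0.126 without wildtype 1, 2, 3 or 4 and 0.25 and 0.181 without Myc 2 or Myc 3. With Myc 1 left out, the edgeR adjusted p was 0.0194.

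Krt4 is also a gene of the urothelium, the lining of the renal pelvis, so uroplakins, the membrane proteins that define that lining, were read beside it. The summed level of 5 uroplakins was 56.2, 54.6, 79.6, 35.5 and 72.5 CPM in wildtype and 77.4, 49.5 and 98.5 CPM in Myc. These sums overlapped, and the Myc library with the highest Krt4, Myc 2, had the lowest uroplakin sum of its group. None of the uroplakins was at 0. Of 17 keratins and uroplakins tested, 12 lay above 0 with a median log2 fold change of 0.28, which was 0.15 without Myc 3, 0.44 without Myc 2 and 0.13 with a block for the replicate number. Krt19, a keratin of duct epithelia, measured 21.6, 21.3, 29.9, 33.8 and 25.4 CPM in wildtype and 35.3, 40.8 and 48.2 CPM in Myc, with no overlap (log2 fold change 0.65). Krt18, another keratin of simple epithelia, had 84.6 ± 10.6 and 102 ± 8.59 CPM and overlapped.

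Over all genes the comparison was a balanced cloud of small differences. Of 23742 genes tested, 11881 (50%) had a log2 fold change above 0, and the median absolute log2 fold change was 0.0847. Among the 12104 genes of at least 10 CPM, for which counting error is small, it was 0.053, and 5% to 95% of these genes lay between -0.16 and 0.16. In 847 genes (3.57% of those tested) the libraries of the groups did not overlap, 528 higher in Myc (2.22%) and 319 lower (1.34%). At an unadjusted p under 0.05 edgeR gave 671 higher (2.83%) and 427 lower (1.8%), 4.62% in all. Without any difference between the groups, a share of about 0.05 would fall under this p, so 4.62% is no excess. Random order alone would also separate groups of 3 and 5 libraries in about 3.57% of genes. These 847 are thus no excess and not genes shown to differ. The non-overlapping genes differed by little: their median log2 fold change was 0.27 on the higher side and -0.22 on the lower side, and 124 and 60 of them reached 1.5-fold. Of those with at least 10 CPM, 280 were higher and 169 lower, with medians of 0.17 and -0.15, and only 10 and 3 reached 1.5-fold.

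The lean to the higher side moved with gene length. Of the shortest genes at 10 CPM or more (exon width up to 2915 bases), 58.2% lay above 0, against 45.6% of the longest (5335 bases and more), though the class medians were only 0.02 and -0.01. Wildtype 4 had the largest deviation of this kind among the 8 libraries, with a median of 0.09 in short and -0.04 in long genes. When a trend on length was removed from each library, the non-overlapping genes numbered 478 higher and 437 lower, a nearly even split. Leaving out the ribosomal RNA rows before scaling gave 549 higher and 289 lower, and leaving out 1 library at a time gave 646 to 1296 higher (most without wildtype 4) and 489 to 978 lower (most without Myc 1). Groups with fewer libraries overlap less often in any case. At equal group sizes the higher count was 857, 646, 670 and 838 without wildtype 1, 2, 3 and 5, and its peak without wildtype 4 was not explained by a test.

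Myc 1 was the library closest to wildtype. Among the 528 non-overlapping genes that were higher in Myc, Myc 1 was the Myc library nearest to wildtype in 312 (59.1%), Myc 2 in 114 (21.6%) and Myc 3 in 102 (19.3%). The median deviation of these genes from the wildtype mean was 0.17 in Myc 1, 0.24 in Myc 2 and 0.24 in Myc 3 on the log2 scale. On the lower side Myc 1 was nearest in 148 of 319 genes (46.4%). The high share of ribosomal RNA and the smaller deviations were thus found in the same library, and their relation was not tested. Without Myc 1 edgeR called 6 genes: Bhlha15 and Snhg4 (adjusted p = 0.00794 each in edgeR), Ccdc116 (0.0087), AI118078 and Gm37697 (0.0165 each) and Krt4.

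**Figure D1:**
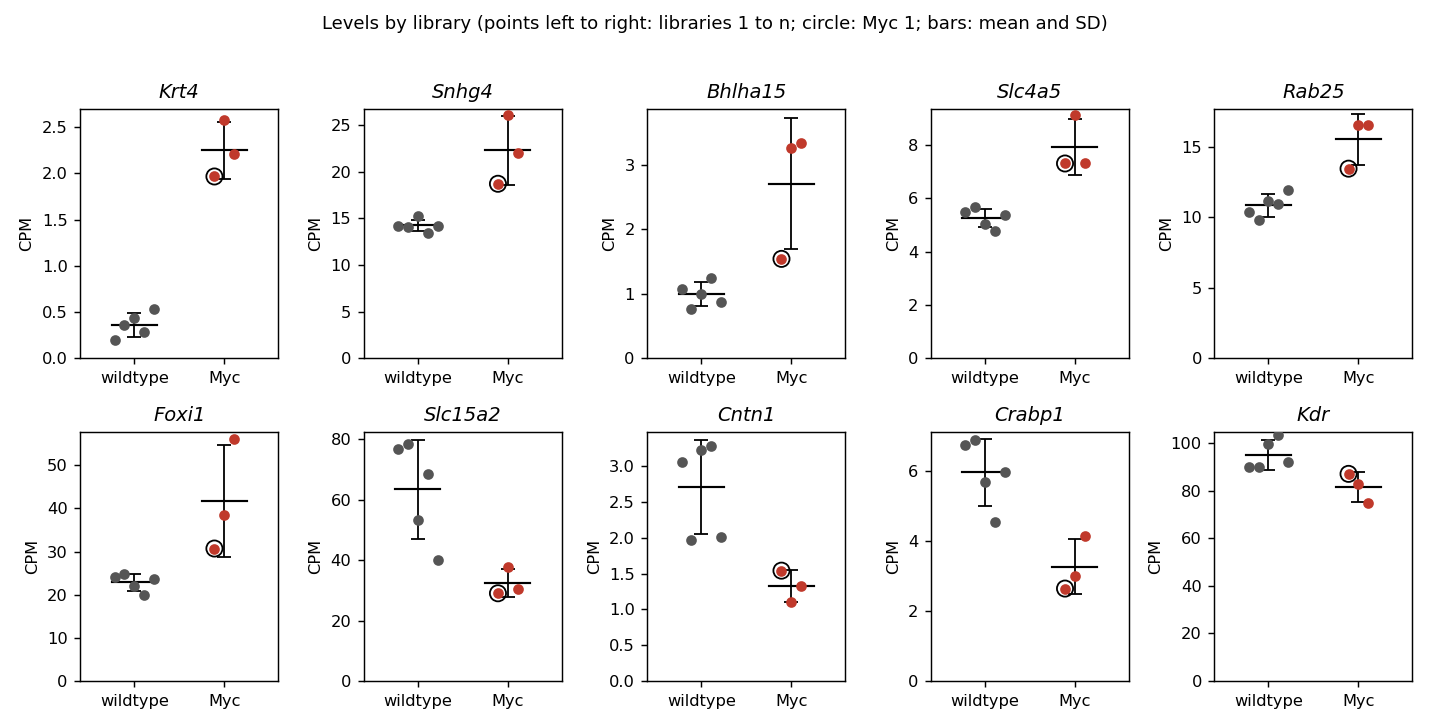
CPM of 10 genes in each library of wildtype (n = 5) and Myc (n = 3), 1 panel a gene, with bars for mean and SD and an open circle for Myc 1, the library rich in ribosomal RNA. In Krt4, Snhg4, Bhlha15, Slc4a5, Rab25 and Foxi1 all 3 Myc libraries lie above the wildtype range, and in Slc15a2, Cntn1, Crabp1 and Kdr below it, with Myc 1 lowest of the Myc libraries in Krt4, Snhg4 and Bhlha15.

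Besides Krt4, the genes of smallest p on the higher side included a small nucleolar RNA host, transcription factors and transporters, none of them called by edgeR. Snhg4, a non-coding host of small nucleolar RNAs, measured 14.2, 14.1, 15.2, 13.5 and 14.2 CPM in wildtype and 18.7, 26.1 and 22.1 CPM in Myc. The wildtype values were close together and all Myc values were above them (log2 fold change 0.65, SE 0.0882, edgeR adjusted p = 0.094). Bhlha15, a transcription factor of secretory cells, measured 1.08, 0.767, 0.995, 1.25 and 0.871 CPM in wildtype and 1.54, 3.25 and 3.33 CPM in Myc. Myc 1 was well below the other Myc libraries here (log2 fold change 1.45, SE 0.23, edgeR adjusted p = 0.16). Slc4a5, an electrogenic sodium bicarbonate cotransporter, had 5.48, 5.66, 5.03, 4.79 and 5.36 CPM in wildtype and 7.31, 9.15 and 7.34 CPM in Myc. Its groups did not overlap (log2 fold change 0.59, SE 0.095, edgeR adjusted p = 0.16). Ccdc116 had a log2 fold change of 1.17, from 1.22 to 1.63 CPM in wildtype to 2.1, 3.57 and 3.66 CPM in Myc, but it overlaps Ydjc on the opposite strand and the kit does not mark strand, so reads of the pair cannot be told apart. Pramef12 (log2 fold change 1.77) and Guca2a, which encodes the gut and kidney peptide guanylin (1.07), were lower in level, at up to 1.89 CPM in every wildtype library. Gpr39, a zinc-sensing receptor, had 4.66 ± 0.429 and 6.88 ± 0.912 CPM (0.56), and Spire2, an actin nucleator, 5.43 ± 0.235 and 7.55 ± 0.984 CPM (0.47).

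On the lower side the leading differences were smaller and none was called by edgeR. Cntn1, an adhesion protein of the immunoglobulin family, measured 3.06, 1.97, 3.23, 3.28 and 2.01 CPM in wildtype and 1.54, 1.1 and 1.33 CPM in Myc (log2 fold change -1.03, SE 0.22, edgeR adjusted p = 0.48). Crabp1, which binds retinoic acid in the cytosol, measured 6.74, 6.9, 5.68, 4.54 and 5.97 CPM in wildtype and 2.64, 3.01 and 4.16 CPM in Myc. The groups of both genes were separate, by a narrow gap in Crabp1 (log2 fold change -0.86, SE 0.191). Slc15a2, the high-affinity peptide transporter of the proximal tubule, measured 76.9, 78.5, 53.2, 68.7 and 39.9 CPM in wildtype and 29.0, 37.8 and 30.3 CPM in Myc. Its wildtype values spread widely, and the lowest was just above the highest Myc value (log2 fold change -0.97, SE 0.249, edgeR adjusted p = 0.711). The remaining genes of this kind differed less, with Stab2, a scavenger receptor of sinus-like endothelium, at -0.62, Spink8, a serine protease inhibitor and type B intercalated marker, at -0.34, Lrrc8c, a subunit of the volume-regulated anion channel, at -0.25, N6amt1, a methyltransferase, at -0.24 and Man1c1, a mannosidase of the Golgi, at -0.19 on the log2 scale.

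DESeq2 called 43 genes in the same comparison, 38 higher and 5 lower (Crabp1, Cntn1, Slc15a2, Spink8 and N6amt1), and limma-voom called 0 with the same threshold. The genes called by DESeq2 included 11 members of the lists described next: Krt4, Snhg4, Rab25, Ap1m2, Noc2l, Spink8, Dmrt2, Foxi1, Atp6v1g3, Atp6v1c2 and Atp6v0d2. All 51 lists together held 1071 of the 23742 genes tested. The lists and their members were chosen with earlier results of these data known. A share of a list printed beside that of all genes is therefore a description and no test. Apart from Krt4, edgeR called no member of any list.

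**Figure D2:**
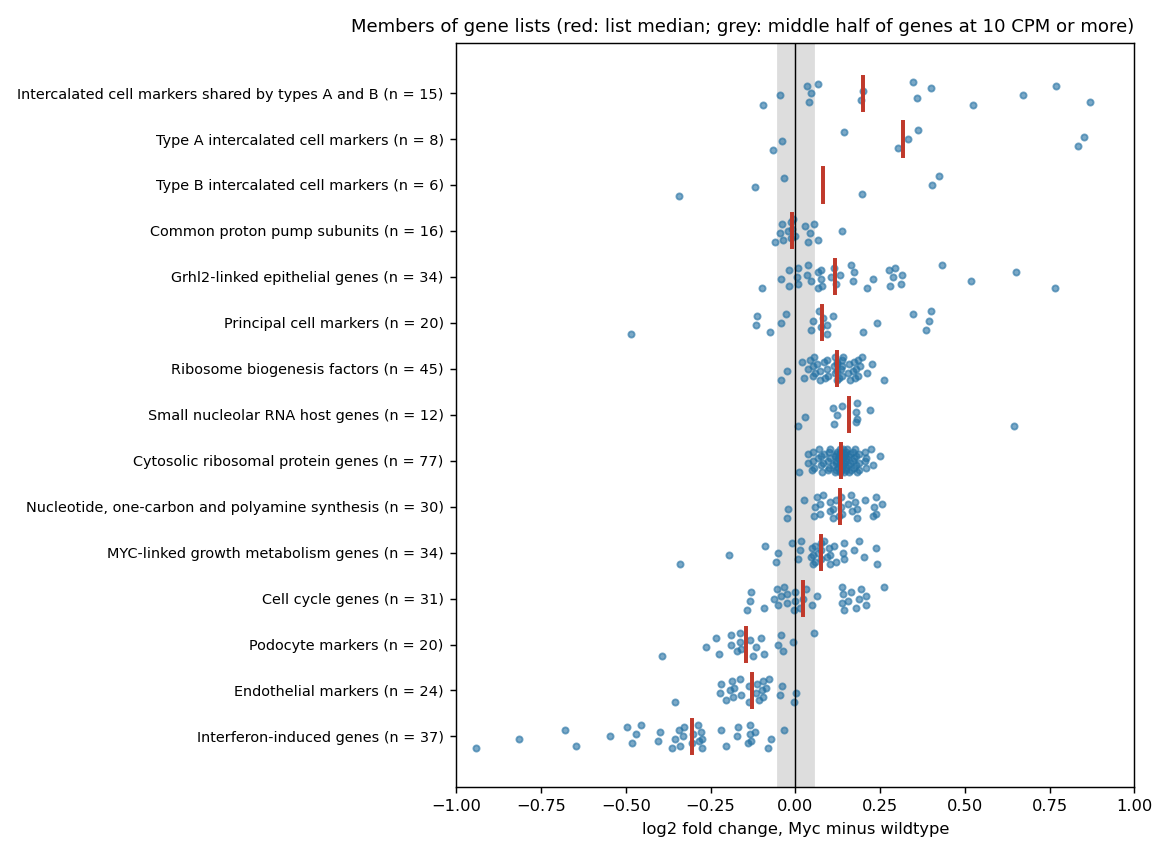
Log2 fold change (Myc minus wildtype) of each tested member of 15 gene lists, 1 dot a gene, with the median of each list in red and a grey band from -0.05 to 0.06 that holds the middle of the distribution of all genes of at least 10 CPM. The 77 ribosomal protein genes form a narrow band above 0, intercalated cell markers spread from near 0 to 0.87, and endothelial and interferon-induced genes lie almost wholly below 0. 1 interferon-induced gene, Zbp1 at -1.33, lies outside the drawn range.

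Markers of intercalated cells were among the highest of the lists. Of 15 markers shared by types A and B that could be tested, 13 lay above 0, with a median log2 fold change of 0.20 against 0 over all genes, and in 5 (33.3%, against 2.22% of all genes on this side) the groups did not overlap. Foxi1, the transcription factor on which these cells depend, measured 24.1, 24.8, 22, 19.9 and 23.5 CPM in wildtype and 30.7, 38.5 and 56.0 CPM in Myc. The groups were separate and Myc 3 was highest (log2 fold change 0.87, SE 0.16, edgeR adjusted p = 0.313). Atp6v1g3, a proton pump subunit of these cells, measured 14.1, 18.8, 17.4, 10.8 and 17.1 CPM in wildtype and 24.2, 26.2 and 24.4 CPM in Myc (0.67). Atp6v1c2 measured 12.5, 13.8, 14.3, 13.5 and 16.5 against 17.9, 21.2 and 21.9 CPM (0.53), and Atp6v0d2 17.9, 24, 23.9, 22.6 and 24.1 against 26.8, 31.5 and 30.8 CPM (0.40), both also pump subunits of these cells. Hepacam2, the fifth, was chosen after its values were seen, at 7.18 to 8.36 CPM in wildtype and 10.9, 14.6 and 14.4 CPM in Myc (0.77). The other members of the pump used here, Atp6v1b1 and Atp6v0a4, had log2 fold changes of 0.35 and -0.05 with overlap, and the ammonia channels Rhcg and Rhbg 0.19 and 0.20.

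Proton pump subunits that all cells use lay near 0. Of 16 such subunits 6 lay above 0, with a median of -0.01 (-0.04 without wildtype 1 and 0.05 without Myc 1) and no member without overlap, and 1, Atp6v0e, was at an unadjusted p under 0.05 in edgeR (log2 fold change 0.14). Of 8 type A markers 6 lay above 0 (median 0.32), and 3 did not overlap, all higher (37.5%, against 2.22% of all genes on this side). Over type A genes of at least 10 CPM the median was 0.05, with 2 of 4 above 0. Dmrt2, a transcription factor of type A cells, measured 6.13, 7.08, 5.45, 8.39 and 6.51 CPM in wildtype and 10.3, 12.6 and 13.0 CPM in Myc (log2 fold change 0.83, SE 0.201). Kit, a receptor tyrosine kinase, measured 48.8, 47.0, 47.3, 50.3 and 48.2 against 58.4, 60.1 and 60.5 CPM, a small difference (0.30) over a very narrow spread. Slc4a1, the basolateral anion exchanger that defines type A cells, measured 9.55, 12.3, 12.4, 5.04 and 12 against 14.2, 13.4 and 11.2 CPM and overlapped (0.33). Aqp6, a water channel in vesicles of type A cells that was chosen after its values were seen, overlapped too (0.36). Of 6 type B markers 3 lay above 0 and 3 below, with a median of 0.08 that was -0.07 without wildtype 4. The groups did not overlap in 2, on opposite sides: Slc4a9, their basolateral anion exchanger, was higher in every Myc library (90.8 to 102 CPM against 37.6 to 90.3 CPM, log2 fold change 0.42), and Spink8 was lower in every one (16.0, 19.7 and 19.8 CPM against 22.4 to 25.9 CPM, -0.34). Slc26a4, the apical exchanger pendrin, was at -0.03.

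In a bulk sample more cells of a type and more RNA per cell cannot be told apart, here and in the lists below. The type A score, the mean log2 CPM of the members relative to wildtype, was 0.10, 0.08, 0.02, -0.23 and 0.04 in wildtype and 0.33, 0.38 and 0.27 in Myc. All Myc libraries were above all wildtype libraries in this score, with wildtype 4 lowest. The score of the shared markers was -0.02, 0.16, 0.08, -0.39 and 0.18 in wildtype and 0.16, 0.30 and 0.45 in Myc, so Myc 1 lay within the wildtype range. The median of the shared list was 0.11 without Myc 3 and 0.36 without wildtype 5, and that of type A 0.18 without wildtype 4. Wildtype 4 was also lowest in proximal tubule markers, at 2425 CPM in sum (4841 to 8373 in the rest of wildtype, 5374 to 7046 in Myc), and the part of this in its low intercalated score was not tested.

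Genes linked to Grhl2 showed a smaller lean in the same direction. Of 34 epithelial genes linked to Grhl2, 30 lay above 0 with a median log2 fold change of 0.12, and 6 (17.6%, against 2.22% of all genes on this side) did not overlap, all higher. Rab25, a small GTPase of apical recycling, measured 10.3, 9.82, 11.1, 11 and 11.9 CPM in wildtype and 13.4, 16.5 and 16.6 CPM in Myc (log2 fold change 0.52, SE 0.0934, edgeR adjusted p = 0.276). Ap1m2, the epithelial subunit of the AP-1 sorting adaptor, measured 30.7, 29.2, 29.7, 32.0 and 29.8 against 34.1, 38.9 and 37.2 CPM (0.28). St14, the membrane protease matriptase, measured 74.6, 69.2, 69.6, 64.5 and 75 against 78.6, 86.9 and 82.6 CPM (0.23). Both were separate between the groups, by narrow gaps. Elf3, an epithelial transcription factor, overlapped through wildtype 4, with 19.5 to 27.4 CPM in wildtype and 26.5, 28.9 and 34.1 CPM in Myc (0.43).

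The remaining non-overlapping members were Krt19 and 2 genes chosen after their values were seen, Prom2, a protein of membrane protrusions (6.15 to 9.65 against 11.3, 14.9 and 14.3 CPM, 0.77), and Cgn, the tight junction protein cingulin (51.5 ± 3.01 against 57.9 ± 2.77 CPM, 0.17). Of the core junction genes of the list, Cdh1 and Epcam hardly differed. Cdh1, which encodes E-cadherin, had 225 ± 8.81 and 232 ± 5.21 CPM (log2 fold change 0.04), and Epcam 207 ± 13.5 and 208 ± 10.1 CPM (0.01, with a sign that turned in 5 alternatives). Cldn4, a claudin of the collecting duct, had 54.7 ± 4.36 and 61.6 ± 4.11 CPM with overlap (0.17). The score of the list was -0.03, -0.03, 0.01, 0.04 and 0.01 in wildtype and 0.07, 0.18 and 0.24 in Myc, so all 3 Myc libraries were above wildtype and Myc 1 was nearest. Without Myc 1 the median was 0.17.

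Principal cell markers differed among themselves. Of 20, 14 lay above 0 with a median of 0.08, and 2 were higher and 1 lower without overlap (against 2.22% and 1.34% of all genes). Aqp2, the water channel that defines these cells, measured 398, 311, 381, 547 and 212 CPM in wildtype and 314, 437 and 325 CPM in Myc, with full overlap (log2 fold change -0.04, with a sign that turned in 7 alternatives). Scnn1a, a subunit of the epithelial sodium channel, measured 68.5, 61.6, 62.2, 119 and 75.1 against 55.1, 53.1 and 57.5 CPM, the lower exception, with wildtype 4 far above the rest (-0.48). Gata2, a transcription factor, had 46.9 ± 3.66 and 59.7 ± 8.1 CPM (0.35), Elf5, an Ets factor of these cells, 21.5 ± 1.41 and 25.4 ± 2.68 CPM (0.24), and Tfcp2l1, a Grainyhead-related factor of both collecting duct cell types, 336 ± 24 and 363 ± 20.8 CPM (0.11).

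**Figure D3:**
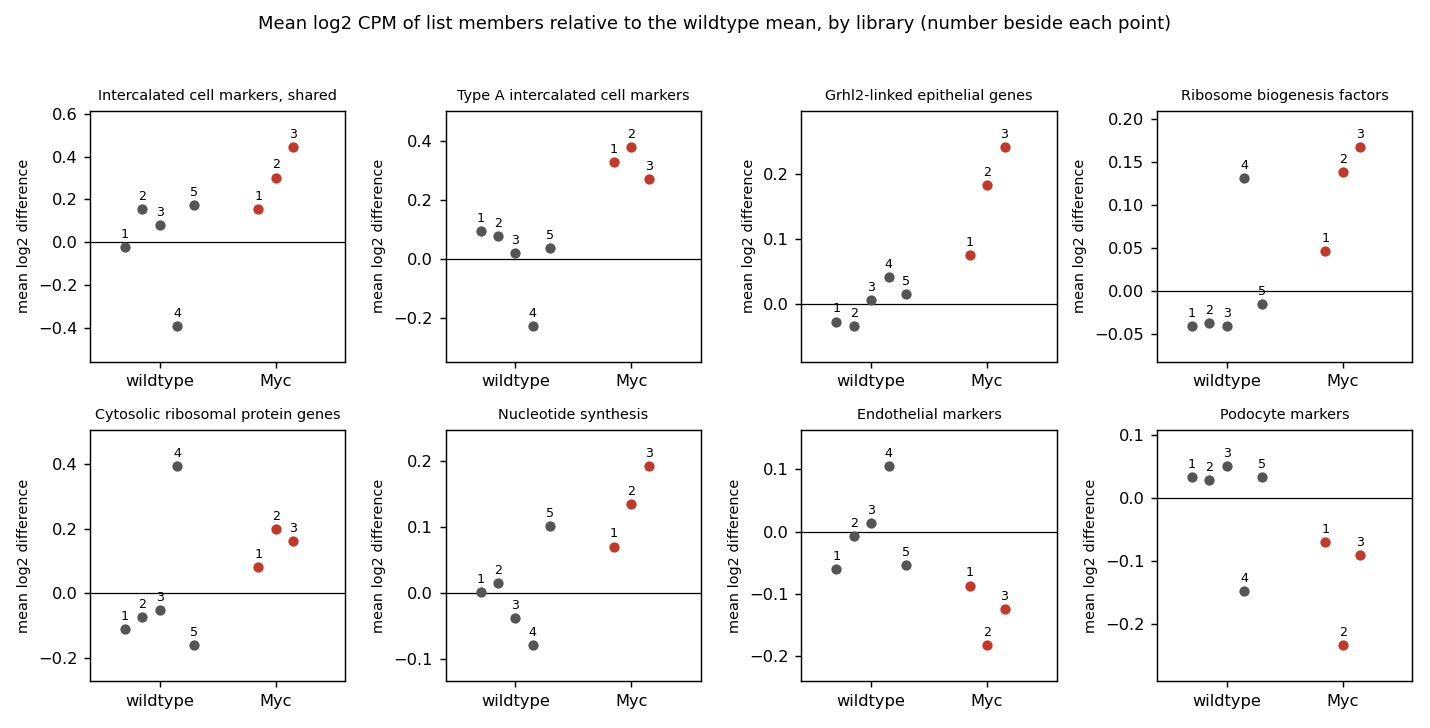
Score of 8 gene lists (mean log2 CPM of the members relative to the wildtype mean) in each library of wildtype (n = 5) and Myc (n = 3), with the library number beside each point. Type A intercalated, Grhl2-linked and endothelial scores leave no overlap between the groups, whereas in ribosomal protein and ribosome biogenesis genes wildtype 4 (0.39 and 0.13) lies among or above the Myc libraries.

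Several lists that MYC is best known for lay almost wholly above 0 by small amounts. All 77 cytosolic ribosomal protein genes had a log2 fold change above 0, from 0.01 to 0.25 with a median of 0.14, yet in 0 of them did the groups separate and 0 reached an unadjusted p under 0.05 in edgeR, nor did DESeq2 or limma-voom call any. The score of the list was -0.11, -0.07, -0.05, 0.39 and -0.16 in wildtype and 0.08, 0.20 and 0.16 in Myc. All 3 Myc libraries were thus above 4 of 5 wildtype libraries and below wildtype 4. Rpl12 shows the pattern, with 402, 382, 405, 553 and 373 CPM in wildtype and 453, 548 and 506 CPM in Myc (0.25). Of the 77 genes, 63 belonged to the short class, in which the median of all genes was 0.02. The median of the list was 0.11 with the length trend removed, 0.17 without Myc 1 and 0.25 without wildtype 4. In sum the list held 34943 to 50854 CPM in wildtype and 41341 to 44909 CPM in Myc. Members of one list share libraries and are no replicates, so the count of 77 is 1 shift seen many times.

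Ribosome biogenesis factors, which assemble ribosomes in the nucleolus, had 43 of 45 members above 0 and a median of 0.12. The groups did not overlap in 6 (13.3%, against 2.22% of all genes on this side), all higher: Noc2l and Nop58, and Noc3l, Ddx21, Bop1 and Dkc1, which were chosen after their values were seen. Noc2l, a nucleolar factor of the large subunit, measured 91.4, 93.7, 93.7, 97.2 and 98.7 CPM in wildtype and 106, 119 and 116 CPM in Myc. The difference is small but wider than the spread of either group (log2 fold change 0.26, SE 0.053, edgeR adjusted p = 0.48). Nop58, a core protein of small nucleolar ribonucleoproteins, had 93.1 ± 2.71 and 103 ± 1.8 CPM (0.14), Wdr75 41 ± 2.53 and 46.6 ± 4.08 CPM (0.19) and Nop10 29.5 ± 1.57 and 34.5 ± 3.41 CPM (0.23), the last pair with overlap. Their median exon width was 3368 bases, with 19 of 45 in the short class, 17 in the middle class and 9 in the long class. Their median log2 fold change was 0.12 with the length trend removed and 0.15 without Myc 1.

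All 12 small nucleolar RNA hosts lay above 0 (median 0.16, and 0.10 without Myc 2), with Snhg4 the 1 member without overlap; Gas5, another host, had 163 ± 20.3 and 185 ± 3.66 CPM (0.18). Subunits and factors of RNA polymerases I and III had 18 of 27 above 0 with a median of 0.07 (0.04 without wildtype 2 or Myc 3). Translation factors had 18 of 22 above 0 (0.06, from 0.03 without Myc 3 to 0.10 without wildtype 4). Their score was 0.168 in wildtype 4, above 0.015, 0.076 and 0.105 in Myc 1 to 3. The score of the small nucleolar RNA hosts was 0.197 in wildtype 4 against 0.095, 0.258 and 0.171 in Myc 1 to 3. Lower medians were seen in tRNA synthetases, with 16 of 20 above 0 (0.04, and 0.02 without Myc 3), and in mitochondrial ribosomal protein genes, with 33 of 39 (0.05, from 0.02 without Myc 3 to 0.07 without Myc 1).

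Enzymes of nucleotide, one-carbon and polyamine synthesis had 28 of 30 members above 0 (median 0.13, and 0.08 without Myc 3), and 6 did not overlap, all higher (20%, against 2.22% of all genes on this side). Impdh2, the rate-limiting enzyme of guanine nucleotide synthesis, measured 106, 102, 101, 103 and 99.3 CPM in wildtype and 111, 124 and 119 CPM in Myc (log2 fold change 0.20, SE 0.0493, edgeR adjusted p = 0.61). Atic, which carries out the final steps of purine synthesis, measured 62.9, 62.2, 62.0, 65.2 and 66.3 against 70.2, 76.2 and 82.0 CPM (0.26, SE 0.0726). Gart, an enzyme of earlier purine steps, measured 71.4, 70.4, 65.9, 69.3 and 71.1 against 75.3, 83.4 and 87.4 CPM (0.24). In all 3 every Myc library was above every wildtype library, wildtype 4 included. Shmt1, which supplies one-carbon units from serine, had 46.9 ± 1.61 and 53.1 ± 3.31 CPM (0.18), and Ctps and Mthfd1l, chosen after their values were seen, make up the 6. The score of the list was 0.00, 0.02, -0.04, -0.08 and 0.10 in wildtype and 0.07, 0.14 and 0.19 in Myc, with Myc 1 below wildtype 5.

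Other growth genes linked to MYC had 28 of 34 above 0 (median 0.08) and 1 without overlap (2.94%, near the 2.22% of all genes), Ranbp1, a regulator of nuclear transport (78.6 ± 4.38 and 88.7 ± 2.64 CPM, 0.17). Slc7a1, a transporter of arginine and lysine, had 35.5 ± 2.31 and 41.9 ± 4.7 CPM (0.24), and C1qbp, a mitochondrial matrix protein, 81.2 ± 6.1 and 93.4 ± 8.67 CPM (0.20), both with overlap. The score of this list was 0.1267 in wildtype 4, above 0.0053, 0.0734 and 0.1245 in Myc 1 to 3. Cell cycle genes had 17 of 31 above 0 with a median of 0.02, which was 0.06 with 26 above 0 without wildtype 4, -0.03 without wildtype 3 and 0.11 with a block for the replicate number. In 1 of them (3.23%, near the 2.22% of all genes) the groups did not overlap, Mcm7, a subunit of the replicative helicase (126 ± 5.94 and 139 ± 3 CPM, 0.14).

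The promoters of these genes were read for the E-box. The 250 bases before the start in the RefSeq table of GRCm38.p6 were searched for CACGTG, which is its own reverse complement. It was found in 8.89% of the promoters of tested genes (1202 of 13518), in 10.6% of the non-overlapping higher genes with a promoter (37 of 348) and in 8.13% of the lower ones (17 of 209). Nucleotide synthesis genes held it in 23.1% (6 of 26) and the MYC-linked growth genes in 23.3% (7 of 30), whereas ribosomal protein genes held it in 8.77% (5 of 57) and ribosome biogenesis factors in 4.88% (2 of 41). Shares as high were found in lists with other medians, such as p53 target genes (33.3%, 4 of 12, median log2 fold change 0.01) and immediate-early genes (26.7%, 4 of 15, -0.14). Genes of at least 10 CPM had it in 10.1%. A match is a description of letters and not a binding site. The motif AACCGGTT, a form of the Grainyhead site that is also its own reverse complement, was in 0.207% of promoters (28). Shown are the promoters of Atic, of Bex4, a small X-linked gene among the leading higher genes, and, for contrast, of Foxi1, which has no match, each 5′ to 3′ on the gene's strand with the E-box in capitals. They lie at chr1:71556906-71557155 (plus strand), chrX:136138746-136138995 (plus strand) and chr11:34208090-34208339 (minus strand).
Atic: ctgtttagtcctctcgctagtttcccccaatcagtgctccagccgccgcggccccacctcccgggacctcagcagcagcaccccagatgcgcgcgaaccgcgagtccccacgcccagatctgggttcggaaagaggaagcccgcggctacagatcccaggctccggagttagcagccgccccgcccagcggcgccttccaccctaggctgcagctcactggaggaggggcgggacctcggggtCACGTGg
Bex4: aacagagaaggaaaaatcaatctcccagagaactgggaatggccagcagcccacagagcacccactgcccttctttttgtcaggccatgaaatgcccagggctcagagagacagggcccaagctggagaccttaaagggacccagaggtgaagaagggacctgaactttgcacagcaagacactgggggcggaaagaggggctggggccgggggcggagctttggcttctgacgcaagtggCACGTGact
Foxi1: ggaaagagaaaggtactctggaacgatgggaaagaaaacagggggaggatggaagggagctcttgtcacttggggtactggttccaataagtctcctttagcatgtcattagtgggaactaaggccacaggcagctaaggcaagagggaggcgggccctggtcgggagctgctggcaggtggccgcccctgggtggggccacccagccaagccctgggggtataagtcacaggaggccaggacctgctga

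In Atic and Bex4 the E-box begins 7 and 9 bases before the start. Bex4 measured 15.4, 18.5, 17.8, 19.5 and 17.3 CPM in wildtype and 21.6, 25.5 and 26.1 CPM in Myc, without overlap (log2 fold change 0.46, edgeR adjusted p = 0.369).

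Markers of the vessels and the glomerulus leaned the other way. Of 24 endothelial markers 23 lay below 0, with a median log2 fold change of -0.13, and 3 (12.5%, against 1.34% of all genes on this side) did not overlap. Kdr, the main receptor for vascular endothelial growth factor, measured 90.0, 90.1, 99.7, 103 and 92.2 CPM in wildtype and 87.1, 82.9 and 74.7 CPM in Myc. The gap between the groups was narrow (log2 fold change -0.22, SE 0.0632, edgeR adjusted p = 0.827). Flt1, a second receptor of this factor, measured 40.3, 40.3, 45.5, 49.0 and 43.7 against 39.8, 38.7 and 37.3 CPM (-0.18). Plat, tissue plasminogen activator, chosen after its values were seen, measured 109, 109, 119, 130 and 104 against 103, 92.0 and 102 CPM (-0.21). Tek, the angiopoietin receptor, had 77.6 ± 4.62 and 68.4 ± 2.45 CPM (-0.18), and Ehd3, a marker of glomerular endothelium, 47.5 ± 9.1 and 37.1 ± 5.55 CPM (-0.35). The summed level of the list was 1690 to 1902 CPM in wildtype and 1552 to 1671 CPM in Myc, so these sums did not overlap. The median was -0.16 without Myc 1, -0.10 without Myc 2 and -0.13 with the length trend removed.

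Of 20 podocyte markers 19 lay below 0, with a median of -0.15, but none separated the groups. Podxl, which encodes the surface sialoprotein podocalyxin, measured 412, 414, 460, 399 and 416 CPM in wildtype and 416, 341 and 362 CPM in Myc (-0.17). Wt1, the transcription factor of these cells, measured 185, 174, 182, 243 and 171 against 178, 146 and 162 CPM (-0.23). In both, Myc 1 lay within the wildtype range and the other Myc libraries below it. Nphs1, which encodes nephrin of the slit diaphragm, had a log2 fold change of -0.26 with overlap. The score of the list was 0.03, 0.03, 0.05, -0.15 and 0.03 in wildtype and -0.07, -0.23 and -0.09 in Myc, so wildtype 4 lay among the Myc libraries here too.

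All 37 interferon-induced genes lay below 0, with the largest median among the lists named in this paragraph, -0.30, and no gene separated the groups. The wildtype libraries themselves spread more than that, with scores of -0.02, -0.44, -0.21, 0.31 and 0.36 against -0.12, -0.42 and -0.21 in Myc. The list was highest in wildtype 4 and 5, and the Myc scores lay within the range of the other wildtype libraries. Mx1, an antiviral GTPase, measured 0.737, 0.399, 0.736, 0.722 and 1.02 CPM in wildtype and 0.32, 0.387 and 0.408 CPM in Myc (-0.94), with overlap, and Rsad2, the antiviral enzyme viperin, had 54 ± 13.2 and 43 ± 3.18 CPM (-0.33). The median was -0.20 without wildtype 4 and -0.13 with a block for the replicate number. Antigen presentation genes had 14 of 16 below 0 (-0.20, and -0.07 without wildtype 5), and lymphocyte markers 11 of 15 (-0.25, and -0.13 without wildtype 5).

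The medians of other compartments depended on single libraries. Proximal tubule markers had 17 of 30 above 0 (median 0.04), but 2 of 30 (-0.19) without wildtype 4 and 24 of 30 (0.13) without Myc 1 or without wildtype 5, so no direction is given for them. Distal convoluted tubule markers had 7 of 17 above 0 (-0.05), and 1 of 17 (-0.11) without wildtype 4 against a median of 0.02 without wildtype 5. Thick limb markers had 2 of 15 above 0 (-0.05), with medians of -0.13 without wildtype 4, -0.16 without Myc 1 and -0.01 without Myc 3. Fibroblast and mural markers had 6 of 20 above 0 (-0.03, and 0.03 without Myc 3). Kidney development regulators had 6 of 26 above 0 (-0.09, and -0.05 without wildtype 4), and immediate-early genes, which respond to handling of tissue, 3 of 18 (-0.14, from -0.23 without Myc 1 to -0.08 without wildtype 4). Tubular injury genes had 3 of 18 above 0 (-0.10); Havcr1, the injury marker KIM-1, had 0.559 ± 0.241 and 0.644 ± 0.13 CPM, and Lcn2, the injury marker NGAL, 11.3 ± 1.47 and 10.7 ± 0.97 CPM. Cystic disease genes had 9 of 22 above 0 with a median of -0.01, against 4 of 22 (-0.05) without wildtype 4 and 14 of 22 (0.02) without wildtype 1. Genes of oxidative phosphorylation encoded in the nucleus had 42 of 50 above 0 by very small amounts (0.04, from 0.02 without Myc 3 to 0.07 without Myc 1), and cholesterol and fatty acid synthesis genes 20 of 23 (0.10, and 0.16 without wildtype 5). Markers of tissue next to the kidney reached high levels in single wildtype libraries, Alb with 187 CPM in wildtype 3 and Acta1 with 70 CPM in wildtype 2, and both were at most 2.01 CPM in Myc.

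**Figure D4:**
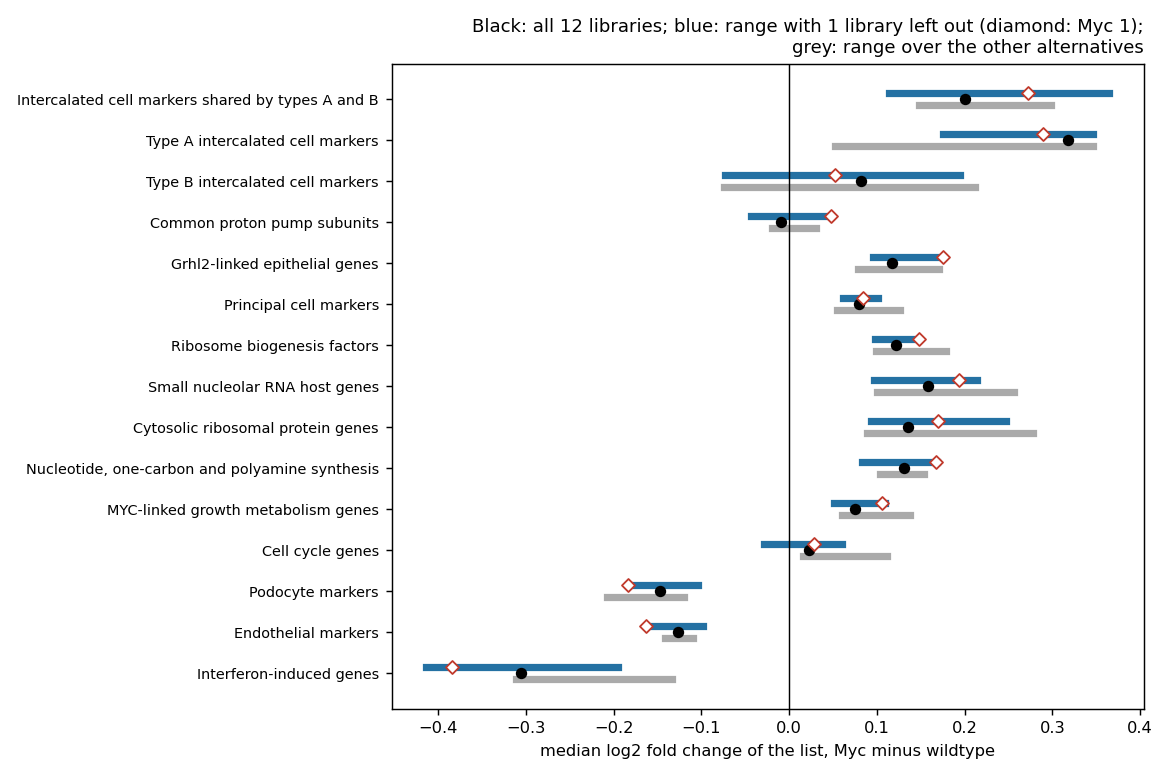
Median log2 fold change (Myc minus wildtype) of 15 gene lists with all libraries (black), over fits that leave out 1 library (blue line), without Myc 1 (diamond) and over the other alternatives (grey). The ribosome, nucleotide, type A intercalated, shared intercalated and Grhl2-linked lists stay above 0 in each fit drawn. The endothelial, podocyte and interferon lists stay below 0, and type B intercalated markers cross 0 (-0.07 without wildtype 4). So do common proton pump subunits (-0.04 without wildtype 1, 0.05 without Myc 1) and cell cycle genes (-0.03 without wildtype 3). The width of the lines shows how far single libraries move the medians.

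Across 25 alternatives the medians of the type A, shared intercalated, Grhl2-linked, ribosomal protein, ribosome biogenesis, small nucleolar RNA host, nucleotide, MYC-linked, endothelial, podocyte and interferon lists had 0 changes of sign. Leaving out 1 library moved the ribosome biogenesis median between 0.10 and 0.15 and the endothelial median between -0.16 and -0.10. It moved the intercalated medians more, from 0.11 to 0.36 in the shared list.

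The Grhl2KO_Myc kidneys were set beside these values, with the same 5 wildtype libraries as controls of both comparisons, so no overlap or correlation between them was computed. There edgeR called 1584 genes against wildtype (6.67%; 965 higher, or 4.06%, and 619 lower, or 2.61%) and 200 against Myc (0.842%; 85 higher, or 0.358%, and 115 lower, or 0.484%). Grhl2 was 21 ± 2.78 CPM in Grhl2KO_Myc (n = 4), lower than in Myc (log2 fold change -0.51, edgeR adjusted p = 0.0443). Krt4 was 4.23 ± 1.42 CPM, higher than in wildtype (3.56, edgeR adjusted p = 6.09e-05), and its difference from Myc did not pass (0.91, edgeR adjusted p = 0.209).

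**Figure D5:**
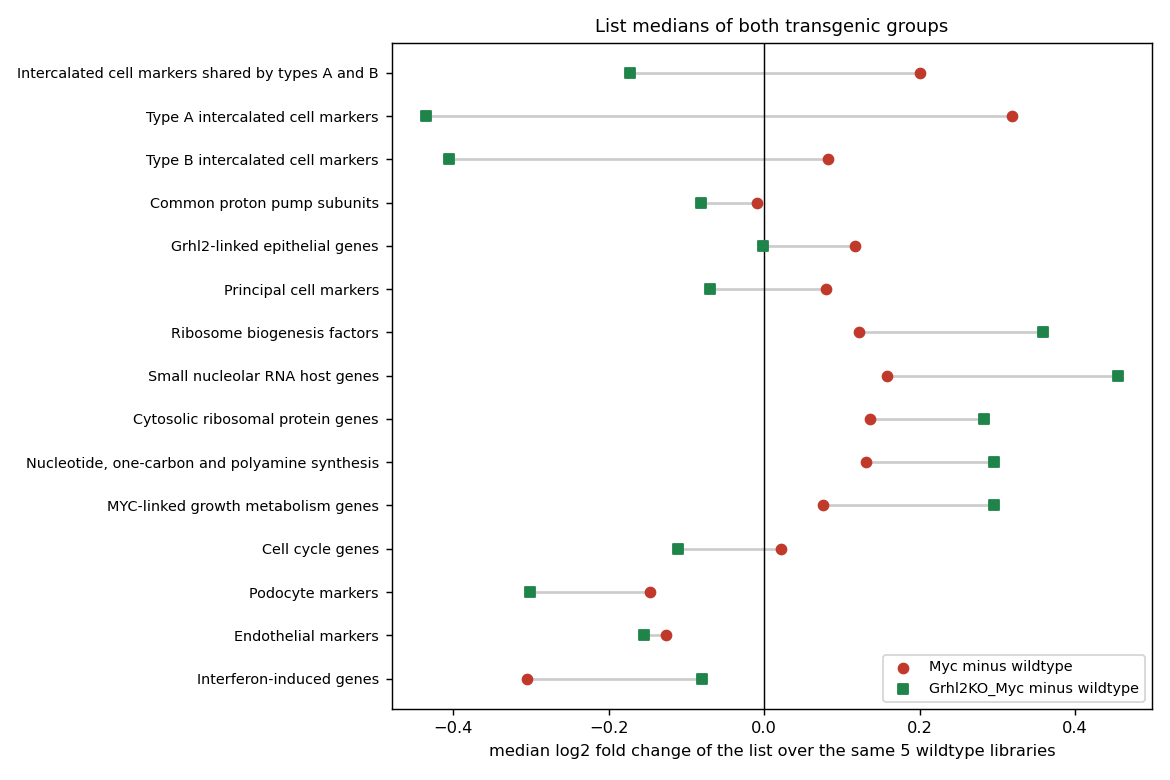
Median log2 fold change over the same 5 wildtype libraries of 15 gene lists in Myc (circles) and Grhl2KO_Myc (squares). Ribosome and nucleotide synthesis lists lie above 0 in both with larger values in Grhl2KO_Myc, and intercalated lists lie above 0 in Myc and below 0 in Grhl2KO_Myc.

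In the growth lists the Grhl2KO_Myc values were larger in the same direction. The median against wildtype was 0.36 in ribosome biogenesis factors (0.12 in Myc), 0.45 in small nucleolar RNA hosts (0.16), 0.28 in ribosomal protein genes (0.14), 0.30 in nucleotide synthesis genes (0.13) and 0.30 in MYC-linked growth genes (0.08). The ribosome biogenesis score was 0.29, 0.28, 0.40 and 0.47 in Grhl2KO_Myc 1 to 4. It was highest in Grhl2KO_Myc 3 and 4, which had low proximal tubule scores (-1.25 and -1.13). The part of this in the growth medians was not tested. Between Grhl2KO_Myc and Myc, 4 of 45 ribosome biogenesis factors were called, all higher in Grhl2KO_Myc, against 0.358% of all genes on this side. Snhg4 was 33.3 ± 1.14 CPM there, above Myc by 0.58 on the log2 scale (edgeR adjusted p = 0.014). Noc2l exceeded its Myc level by 0.30 (edgeR adjusted p = 0.0296), Impdh2 by 0.30 (0.0191, edgeR), Bex4 by 0.56 (0.0166, edgeR) and Slc4a5 by 1.27 (0.000157, edgeR).

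The intercalated lists had medians below 0 in Grhl2KO_Myc and above 0 in Myc. Type A markers had a median of -0.43 in Grhl2KO_Myc against wildtype (0.32 in Myc), type B markers -0.41 (0.08, and -0.07 without wildtype 4) and the shared markers -0.17 (0.20). The shared score was 0.06, 0.02, -0.21 and -0.30 in Grhl2KO_Myc 1 to 4, and the type A score -0.36, -0.43, -0.41 and -0.48. Their proximal tubule scores were 0.16, -0.06, -1.25 and -1.13, and the part of this in the intercalated medians was not tested. The Grhl2-linked median was -0.001 (0.12 in Myc), with 4 of 34 genes called higher and 6 lower than in wildtype by edgeR (against 4.06% and 2.61% of all genes). Against Myc, 2 of 15 shared markers and 2 of 8 type A markers were called lower in Grhl2KO_Myc, and 5 of 34 Grhl2-linked genes, against 0.484% of all genes. Atp6v1c2 was lower than in Myc by a log2 fold change of -0.55 (edgeR adjusted p = 0.0473), Atp6v0d2 by -0.47 (edgeR adjusted p = 0.048), Aqp6 by -1.99 (edgeR adjusted p = 0.00176) and Rab25 by -0.87 (edgeR adjusted p = 0.00103). Elf5, with 5.75 CPM on average, was lower than in Myc by -2.14 (edgeR adjusted p = 4.55e-06). Endothelial and podocyte markers lay below wildtype in both, with medians of -0.15 and -0.30 in Grhl2KO_Myc, and interferon-induced genes had -0.08 there.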

How the data were processed

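Per the labels' protocols, RNA of the entire right kidney was preserved in Qiazol, purified on RNeasy columns with DNase and made into polyA libraries with TruSeq RNA v2. The authors deposited raw counts, not normalized, in 1 table with a column of exon width; reads were aligned with HISAT2 to mm10, per the submitters' processing notes. No source used here names the counting program or its annotation. Of 46403 genes in the table, 41955 (90.4%) had a unique symbol in GENCODE M21, the source of coordinates, strand and overlaps. 0 columns belonged to samples outside the series. Replicates differed beyond sampling noise, so each counts as 1.

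Counts of all 12 libraries entered 1 fit in edgeR 4.0.16 (R 4.3.3; TMM, filterByExpr, quasi-likelihood F test, Benjamini-Hochberg over 23742 genes, called at an adjusted p under 0.05). SE is the log2 fold change over the root of F. List scores used log2(CPM + 0.5). The members, the 51 lists (1095 genes, 1082 in the table, 1071 tested) and the named genes were chosen with earlier results of these data known, and lists have no test. Names follow a rule: a fixed set (Grhl1, Grhl2, Grhl3, Myc, Krt4, Foxi1, Rab25, Aqp2, Cdh1, Epcam, Cldn4, Havcr1 and Lcn2), called genes, genes called without Myc 1, the 12 of smallest p per direction with no overlap and at least 1 CPM (numbered models, pseudogenes, receptor segments and sex-linked genes left out) and up to 4 per list. The text describes a part of the genes so named.

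Alternatives were other scalings and filters, DESeq2 1.42.0, voom of limma 3.58.1, fewer libraries, terms for sex, proximal tubule score, replicate number and length, and each library left out. On simulated counts of 23326 genes for Myc against wildtype the test recovered 56.7% of 1.5-fold, 88.1% of 2-fold and 100% of 4-fold differences and made 9 false calls. These counts came from the wildtype mean of each gene, with changes only in genes of at least 1 CPM. They held no library-wide shifts such as those of Myc 1 and wildtype 4, so these shares may not hold for the real libraries.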

Additional observations from a re-analysis of the deposited data

Results flagged for a closer look

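In these results 1 of the 5 wildtype libraries lay far from the other 4. Chance alone sets such a mark in about 1 of 20 groups, and 136 genes and list scores were looked at, of which 23 are named here. Wildtype 4 was the library in 17 of them. It was high in Spink8 (25.9 CPM), Scnn1a (119 CPM), Wt1 (243 CPM), Rsad2 (76.9 CPM), Krt15 (1.44 CPM) and Rpl12 (553 CPM), and low in Nphs1 (46.5 CPM) and Cgn (46.2 CPM). Its list scores on the log2 scale were high for ribosomal proteins (0.395), translation factors (0.168), ribosome biogenesis (0.132) and splicing factors (0.109). They were low for podocytes (-0.147), cystic disease genes (-0.193), type A intercalated cells (-0.228), the thick limb (-0.282) and female-biased kidney genes (-1.59). Wildtype 5, with Y-linked transcripts, had scores of 4.11 for Y-linked genes, 0.444 for antigen presentation and -0.999 for nuclear retained transcripts. Wildtype 1 was low in Prkd1 (16.7 CPM) and Atp6v0d2 (17.9 CPM), and wildtype 3 high in Podxl (460 CPM). The Myc group, with 3 libraries, was too small for this comparison.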

How the results depend on the processing

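Of the genes called, Myc against wildtype, the count of 1 became 0 in fits of only the Myc and wildtype libraries, with a term for sex, with a replicate block, with female libraries only, without Myc 3 and wildtype 5 and in limma-voom. It became 6 without Myc 1 and wildtype 4 (Krt4 not among them; Bspry was, a name chosen after its values were seen) and 43 in DESeq2, and ranged from 0 to 6 when 1 library was left out. The Grhl2-linked median ranged from 0.096 to 0.1749 when 1 library was left out and the type A intercalated median from 0.1752 to 0.3465; the latter was 0.1596 without Myc 1 and wildtype 4, 0.1744 in libraries with a proximal tubule score over -1 and 0.0525 over genes of at least 10 CPM, which leaves fewer members. When 1 library was left out, the log2 fold change of Epcam ranged from -0.0218 to 0.0465 (below 0 without wildtype 2 or 5 and without Myc 1 or 2), that of Aqp2 from -0.2101 to 0.1408 (above 0 without wildtype 4, Myc 1 or Myc 3) and that of Havcr1 from -0.0072 (without wildtype 4) to 0.3752. Signs also turned to -0.0086 for Epcam with the length trend removed, to 0.0521 for Aqp2 with the proximal tubule score as covariate, 0.2279 without Myc 1 and wildtype 4, 0.1386 with a proximal tubule score over -1 and 0.0114 in limma-voom, to -0.009 for Havcr1 with a proximal tubule score over -1 and to 0.0323 for Lcn2 without Myc 1 and wildtype 4. The cause of these turns was not tested. The length, Myc 3 with wildtype 5 and proximal tubule score alternatives were chosen after seeing the data. Genes at an unadjusted p under 0.05 numbered 1180 higher and 499 lower without wildtype 4, and 629 and 554 with the length trend removed. Same-numbered libraries did not pair throughout (r = 0.337, 0.288 and -0.119 for numbers 1 to 3). Myc 1 was most alike wildtype 1, but Myc 2 had a larger r with wildtype 3 (0.326) and Myc 3 with wildtype 5 (0.582). The replicate block gave 768 genes higher and 418 lower at an unadjusted p under 0.05 and an edgeR adjusted p of 0.0923 for Krt4. Below about 1 CPM counting error limits what these depths can show.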
